A study of Mus musculus with 4 samples.

Results

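The classical Ly6c2 monocytes of the mouse liver were studied in 4 single-cell RNA libraries, in which each captured transcript was counted once by its unique molecular identifier (UMI). They were chosen from the measured counts: a cell entered the gate with at least 1 UMI of Ly6c2, at least 3 UMIs in sum of F13a1, Chil3 and Ccr2, at most 5 of the complement genes C1qa, C1qb and C1qc, at most 1 of Ace and Treml4, at most 1 of Cd209a, none of the T cell genes Cd3d, Cd3e and Cd3g, of the B cell genes Cd79a and Cd79b or of Siglech, and at most 2 of the neutrophil genes Retnlg and Cxcr2. Of 31290 cells with at least 500 genes and at most 20% mitochondrial UMIs, 888 met this rule. No barcode of the 888 was shared between libraries.

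Classical monocytes are made in the bone marrow and leave it through the chemokine receptor Ccr2. In an injured or fat-laden liver they enter from the blood, carry Ly6C at the surface, and can become macrophages or dendritic-like cells. Nonclassical monocytes, by contrast, patrol the vessel wall and are marked by Ace, Treml4 and low Ly6C.

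Male C57BL/6J mice, bought at 5 weeks of age, formed 3 groups. The NCD group (1 library) received normal chow and distilled water by mouth, the HFD group (2 libraries) a high-fat diet with 60% fat and distilled water, and the JQF group (1 library) the same high-fat diet and the multi-herb Jiangtang Qingre Formula by mouth every day. Diets ran for 14 weeks before treatment, and treatment lasted 8 weeks. By the methods of the study each library came from the liver of 1 mouse, so that NCD and JQF had no replicate, and p-values across genes take the spread of both from the HFD pair. GEO's labels also name a stem cell line and an immune cell for every library, which does not describe the mixture of liver cells that the counts hold.

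The gated cells held 330409 UMIs in NCD, 3718179 and 4682070 in HFD replicates 1 and 2, and 2940491 in JQF. Their median depth was 18007, 11305, 11190 and 14506 UMIs per cell in the same order, against 13081, 7608, 7874 and 8884 over all kept cells. Scrublet marked 29 of the 888 as likely doublets, 14 and 12 in the HFD libraries, 3 in JQF and 0 in NCD.

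The gate rested on few counts in some cells. Exactly 1 Ly6c2 UMI was held by 214 members, and exactly 3 UMIs of F13a1, Chil3 and Ccr2 by 44, while 54 cells with exactly 2 were left outside by that limit alone. At the complement limit, 6 members stood at 5 UMIs and 7 cells were left out at 6. A further 1161 cells failed by Ly6c2 alone, and 343 by Ace and Treml4 alone.

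The name of the gate was checked against Vcan and Fn1, a matrix proteoglycan and fibronectin, which the rule did not use. Vcan stood at 84.7 CPM (its UMIs scaled to a fixed total over all genes of the gated cells) in NCD, 329 and 306 in the HFD libraries and 343 in JQF. In nonclassical monocytes, gated by at least 2 UMIs of Ace and Treml4, its levels were 3.89, 164, 118 and 94.3, and in T cells 0.449 to 3.72. After each cell was thinned to 3000 UMIs, Vcan was found in 28.6% of the NCD members, 36.6% and 36.7% of the HFD members and 42.5% of the JQF members, against 0.127% to 0.506% of T cells, which should lack it (T cell median depth before thinning 10880, 7281, 6769 and 8143 UMIs). Fn1 gave 71.4%, 55.2%, 60.5% and 57% of members, against 1.02% to 2.15% of T cells. Both markers thus stood above their T cell level in every library. At full depth, neither gene had a UMI in 2, 78, 94 and 43 members of NCD, HFD replicates 1 and 2 and JQF. In NCD, 1 cell held 14 Vcan UMIs and another 9, and no other held more than 2. Ly6c2 itself was less selective, since 14.1% to 30.9% of thinned T cells held it, against 50% to 66.7% of members. Because all genes of the gated cells follow the choice of these cells, these levels are a description with no test.

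**Figure D1:**
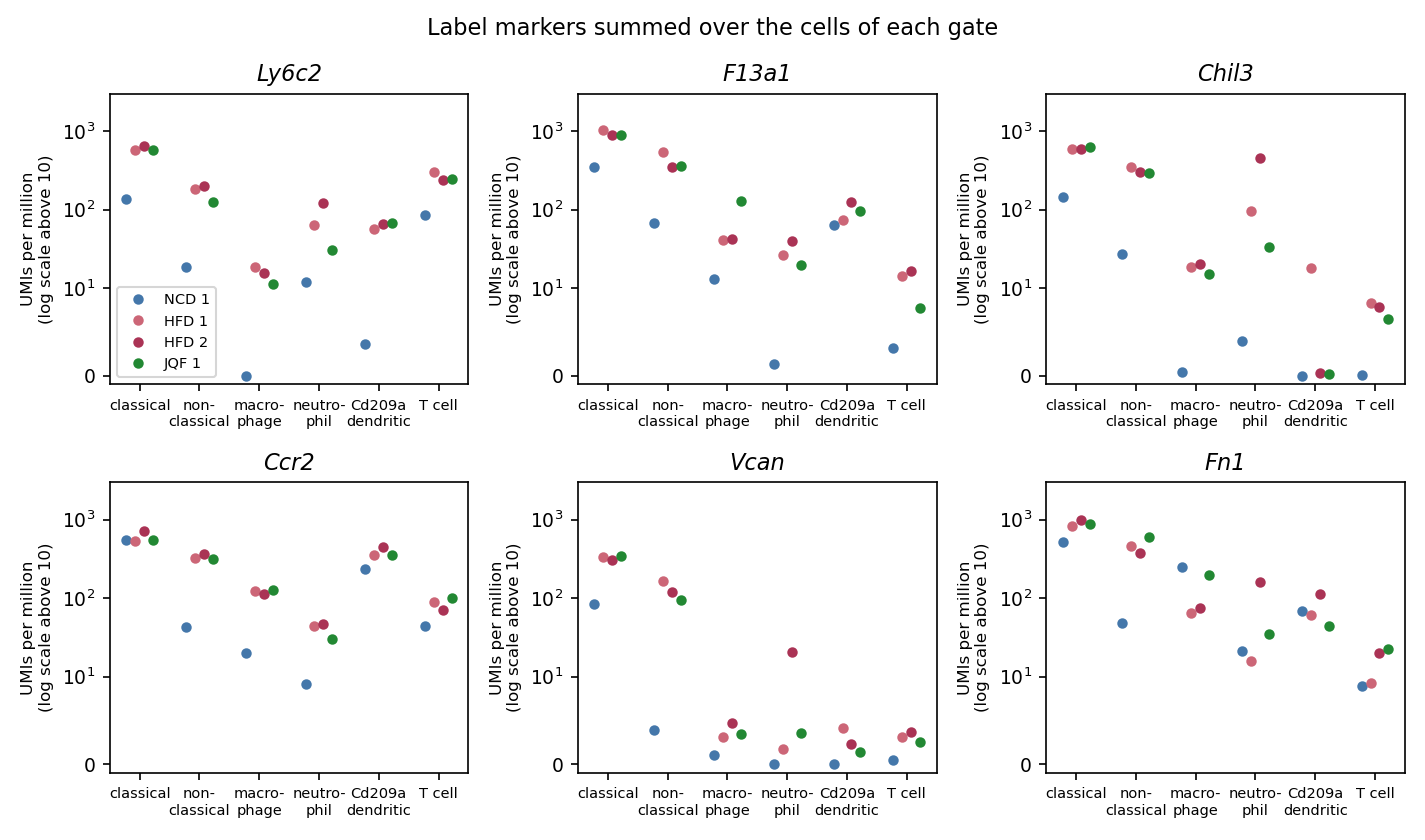
Levels of the 6 marker genes (Ly6c2, F13a1, Chil3, Ccr2, Vcan and Fn1) in CPM on a log axis, for each cell gate and each of the 4 libraries. Vcan and Fn1, which the gate did not use, reached 84.7 to 343 and 511 to 979 in the classical gate and stayed under 4 and 23 in T cells.

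A minority of the members did not carry the other monocyte genes. No UMI of F13a1 or Chil3 was held by 3, 50, 49 and 32 members in NCD, HFD replicates 1 and 2 and JQF (21.4%, 16.8%, 12.5% and 17.2%), so that they passed through Ccr2 alone. Lyz2, the lysozyme of myeloid cells, had a median of 1.75, 1.73, 7.27 and 3.83 UMIs per 10000 in these cells, against 128, 138, 166 and 164 in the remaining members. Their MHC class II genes, which present antigen to T cells, were high instead, with a median sum of H2-Aa, H2-Ab1, H2-Eb1 and Cd74 of 63.8, 224, 306 and 337 per 10000 against 9.42, 4.15, 9.16 and 6.43. They also held more Flt3 (106, 216, 241 and 244 CPM against 45.4, 43.7, 26.5 and 35) and Irf8 (1008, 1155, 1153 and 1082 against 252, 281, 226 and 214), both needed for dendritic cells, and Xcr1 (53.0, 166, 178 and 234 against 0, 16.1, 0 and 6.04), a receptor of cross-presenting dendritic cells. The lymphocyte list was higher in them too (159, 775, 237 and 421 CPM against 30.2, 155, 123 and 95.4). Vcan was 0, 7.01, 12.6 and 0 CPM in them. Of the 3 NCD cells, 2 held 137 and 359 UMIs of endothelial genes, and the first of these held only 2 MHC class II UMIs. The NCD median of MHC class II is that of the cell with 359. All cells gated through Ccr2 alone are kept in all values unless stated, and counts with and without them are given for both comparisons.

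**Figure D2:**
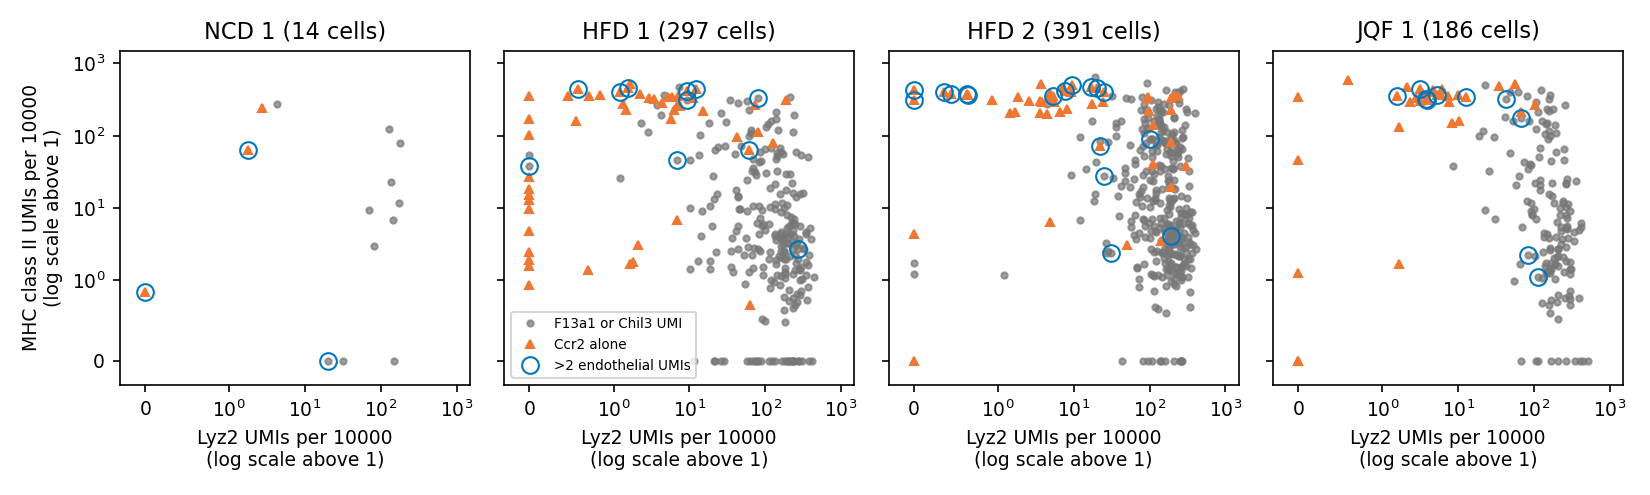
Each of the 888 gated cells by its Lyz2 UMIs (horizontal) and its summed MHC class II UMIs (vertical), both per 10000 UMIs of the cell, in 1 panel per library. Orange triangles are cells that passed through Ccr2 alone, and blue rings are cells with more than 2 endothelial UMIs. The triangles gather at low Lyz2 and high MHC class II in the HFD and JQF panels, and 3 of the 14 NCD cells carry a ring.

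The 14 NCD members were of mixed kind. Of these, 3 cells held 137, 359 and 414 UMIs of the endothelial genes Stab2, Clec4g, Kdr, Ptprb and Dnase1l3, and 1 further cell held 1538 MHC class II UMIs, 147 UMIs of the cycling genes Mki67 and Top2a and 17 Lyz2 UMIs. The 3 deepest cells were that cell (63104 UMIs) and those with 414 and 359 endothelial UMIs (46339 and 45637 UMIs). They supplied 46.9% of all NCD counts, and their UMIs are part of the total behind every NCD CPM value. The full endothelial list of 10 genes summed to 3738 CPM in NCD, against 97.1 and 172 in HFD and 52.4 in JQF. More than 2 endothelial UMIs were found in 3, 11, 17 and 10 members. Every value of NCD below therefore rests on few cells, and its endothelial share differs from that of the other libraries.

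Classical monocytes made up 0.234% of the NCD cells (14 of 5975, 95% Clopper-Pearson interval 0.128% to 0.393%), 4.56% of HFD replicate 1 (297 of 6516, 4.06% to 5.09%), 3.81% of HFD replicate 2 (391 of 10259, 3.45% to 4.20%) and 2.18% of JQF (186 of 8540, 1.88% to 2.51%). The HFD mean was 4.18% ± 0.528 (SD, n = 2). The NCD and JQF shares both lay below the HFD pair, but with 1 library in each the difference between groups was not tested, and the intervals cover counting error only. The libraries also differed in what else was captured, T cells making up 13.6% of NCD, 31.0% and 20.8% of HFD and 43.6% of JQF. With every cell of more than 2 endothelial UMIs left out of numerator and denominator, its share was 0.639% (11 of 1722), though this removes leukocytes with endothelial background too, since 2353 NCD cells held Ptprc and NCD T cells held 2479 CPM of the endothelial list. Among cells with a UMI of the leukocyte gene Ptprc the NCD share was 0.595%, while HFD gave 4.75% ± 0.300 (n = 2) and JQF 2.50% over Ptprc cells. A share of cells cannot tell more monocytes from fewer cells of other kinds.

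Set against nonclassical monocytes, the order was less clear. Classical cells numbered 0.311 per nonclassical cell in NCD (14 against 45), 1.79 and 1.28 in HFD (297 against 166 and 391 against 306) and 1.23 in JQF (186 against 151). JQF thus lay just under HFD replicate 2, within 1 SD of the HFD mean (1.53 ± 0.362, SD, n = 2), and NCD lay below all. The NCD nonclassical gate fell from 45 to 19 cells without cells of more than 2 endothelial UMIs, which moved its ratio to 0.579. With both gates applied again at 3000 UMIs per cell, the ratios were 0.875 in NCD, 4.28 ± 1.01 (SD, n = 2) in HFD and 5.81 in JQF. The nonclassical cells left numbered 8, 43, 83 and 26 in the 4 libraries, and JQF then stood above both HFD libraries (5.00 and 3.57).

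**Figure D3:**
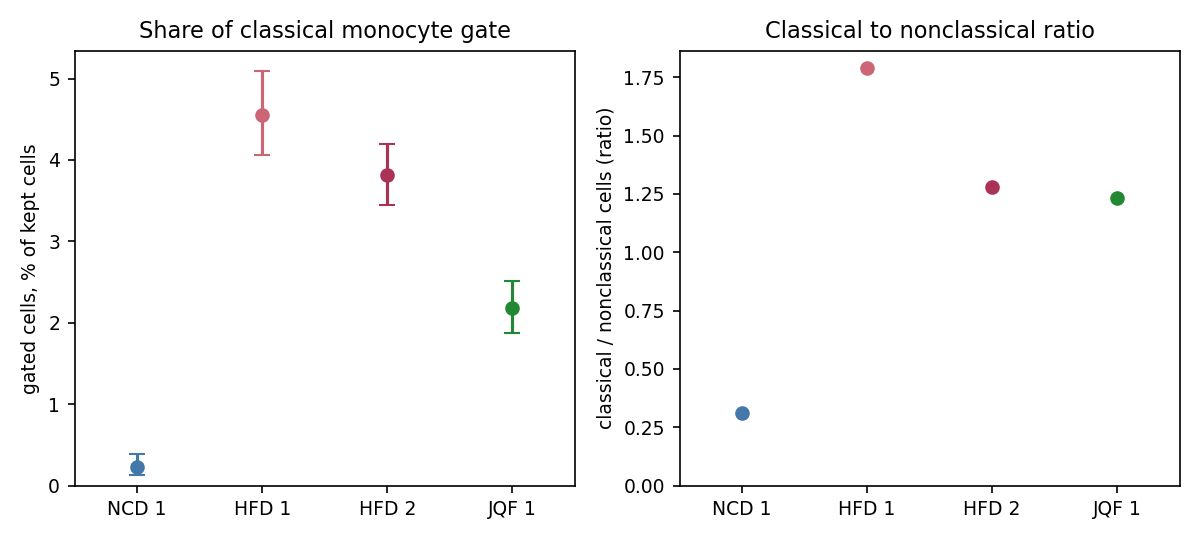
Share of kept cells in the classical gate (left, percent) and classical cells per nonclassical cell (right) in each of the 4 libraries, with bars on the shares for the 95% Clopper-Pearson interval. NCD stands lowest on both (0.234% and 0.311), while JQF (2.18% and 1.23) is below both HFD libraries in share but close to HFD replicate 2 in ratio.

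Members differed among themselves with their Ly6c2 level. Split at the library median of Ly6c2 at 3000 UMIs, the cells above it held more UMIs of the classical identity list than those at or below it in all 4 libraries (means of 46.0 against 37.7 in NCD, 77.6 against 50.9 and 84.2 against 65.0 in HFD, and 86.6 against 56.4 in JQF). Lyz2, Plac8 and the haptoglobin gene Hp were higher above the median in each library. The MHC class II list was lower above the median in both HFD libraries and JQF but not in NCD (31.1 against 26.9, 14.7 against 37.0, 26.2 against 41.3 and 21.8 against 46.5). Of its chains, H2-Ab1 was lower in all 4, at 3.14 against 5.57, 1.09 against 5.67, 2.98 against 6.39 and 2.16 against 6.41 UMIs. The dendritic list showed the same order in 4 of 4 libraries. Cytokines and chemokines were higher above the median in 2 libraries and lower in the other 2. Without cells gated through Ccr2 alone, a setting chosen after seeing the data, the MHC class II difference was smaller, at 13.5 against 23.5, 23.3 against 29.7 and 19.3 against 29 in HFD and JQF, and only 1 NCD cell lay above its median. The cells left out held less Ly6c2 than the rest, at 294, 145 and 125 CPM against 663, 750 and 687 in HFD and JQF. Cytokines were then 29.5 against 29.5, 29.1 against 33.7 and 51.5 against 60.3 in HFD and JQF. As Ly6c2 chose the cells, this gradient is a description, and the cells of a library are not replicates.

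To compare JQF with HFD, the UMIs of the gated cells were summed per library and tested with edgeR's quasi-likelihood test over 11947 genes, with Benjamini-Hochberg adjustment over all of them. At an adjusted p under 0.05, 3 genes (0.0251%) were called, and all were lower in JQF. At an unadjusted p under 0.05 there were 1062 genes (8.89%), of which 439 were higher (3.67%) and 623 lower (5.21%). The median log2 fold change of all genes was -0.02, and library totals without a scaling factor moved it to -0.16.

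The 3 called genes are not monocyte genes, and few cells carried them. Lcn2, a lipocalin of neutrophils and stressed epithelium (chr2:32384633-32388252, minus strand, GRCm38), stood at 165 and 171 CPM in HFD and 5.10 in JQF (log2 -4.90, SE 0.295, adjusted p = 0.0291). Krt8, an epithelial keratin (chr15:101996698-102004482, minus strand), went from 64.0 and 61.7 CPM to 2.38 (log2 -4.56, adjusted p = 0.0314). Ngp, a neutrophil granule protein (chr9:110419747-110423012, plus strand), went from 228 and 353 CPM to 0.340 (log2 -9.46, adjusted p = 0.0372). In HFD, 3 cells supplied 76.4% of the Lcn2 counts, 84.3% of the Krt8 counts and 99.8% of the Ngp counts. Without predicted doublets no gene passed (877 at an unadjusted p under 0.05), and the 3 had adjusted p of 0.690, 0.656 and 0.690. The granule genes S100a8 (621 and 1257 CPM in HFD, 58.2 in JQF) and S100a9 (868 and 1491, 26.2), of which 3 HFD cells held 98.6% and 99.2%, and Camp (285 and 550, 0) had the same order without passing. A UMI of Camp or Ngp was found in 2 and 12 HFD members, 1 JQF member and no NCD member.

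Cytokine and chemokine genes were listed higher in JQF, but none passed the filtered edgeR test with all gated cells. With DESeq2 and with library totals 1 of them did, Cxcl2, and without a filter on low counts Cxcl2, Ccl2, Ccl3, Il6, Il1b and Ptgs2 did, but not Tnf. Of 24 tested, 13 had an unadjusted p under 0.05, 12 of them higher, and the list median was 0.82 on the log2 scale against -0.02 for all genes. Cxcl2, a chemokine that draws neutrophils (chr5:90903871-90905938, plus strand), stood at 1153 CPM in NCD, 2396 and 2314 in the HFD libraries and 5965 in JQF. The JQF value lay above both HFD libraries, which differed little (log2 1.48, SE 0.243, adjusted p = 0.312). Ccl3, a macrophage inflammatory protein, stood at 218, 455, 507 and 996 CPM (log2 1.18, adjusted p = 0.324). Ccl2, the ligand of Ccr2 itself, stood at 60.5, 500, 401 and 854 (log2 1.06, adjusted p = 0.325). Tnf (242, 483, 546 and 801) and Il6 (21.2, 20.2, 19.4 and 39.1) were likewise highest in JQF. Il1b was highest in NCD, at 2851 CPM against 560, 1240 and 1722, and its HFD libraries stood apart from each other. The list summed to 7128, 7915, 9393 and 15562 CPM in the members, and in the free RNA of near-empty barcodes to 2033, 4793, 5630 and 4143. The part of free RNA in the cytokine levels was not tested. The immediate early and heat shock list, which responds to handling, was also above HFD in JQF, at 31949 CPM against 28067 and 29685 (15 of 18 genes positive, median 0.29), and in T cells at 20473 against 14217 and 13314, and its part in the cytokine levels was not tested. In free RNA that list was at 19362 CPM in JQF against 17834 and 18953 in HFD. At 3000 UMIs per cell the cytokine list had a median of 20, 14, 21 and 41 UMIs in NCD, HFD replicates 1 and 2 and JQF. The immediate early and heat shock list had 137.5, 85.5, 93 and 99 in the same order.

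Interferon-stimulated genes were listed lower in JQF, again with none past the threshold of the filtered edgeR test with all gated cells. With DESeq2 and with library totals 1 was called lower, Rsad2, and without a filter on low counts Rsad2, Ifit1, Ifit2, Ifit3 and Ifi213 were. Of 28 tested, 26 had a negative fold change, 14 were lower and 2 higher at an unadjusted p under 0.05, and the median was -0.61. Rsad2, which encodes the antiviral protein viperin (chr12:26442746-26456452, minus strand), stood at 127 CPM in NCD, 164 and 205 in the HFD libraries and 38.4 in JQF (log2 -2.13, SE 0.285, adjusted p = 0.242). Ifit1, which binds foreign RNA, stood at 18.2, 60.8, 60 and 17.7 (log2 -1.64, adjusted p = 0.242), and Ifit2 at 45.4, 60.8, 74.8 and 20.4 (log2 -1.60, adjusted p = 0.312). Ifi213, of the family of DNA sensors, stood at 45.4, 54.1, 55.1 and 17.3 (log2 -1.52, adjusted p = 0.259). For each of these genes JQF was below both HFD libraries, and it lay outside the HFD pair for 73.1% of all genes tested. The list summed to 3387, 5168, 5476 and 3860 CPM, and at 3000 UMIs per cell its median was 4.5, 15, 15 and 10 UMIs. In free RNA the same list summed to 2105, 2661, 2977 and 1656 CPM, where JQF was lowest as well. The part of free RNA in these levels was not tested.

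**Figure D4:**
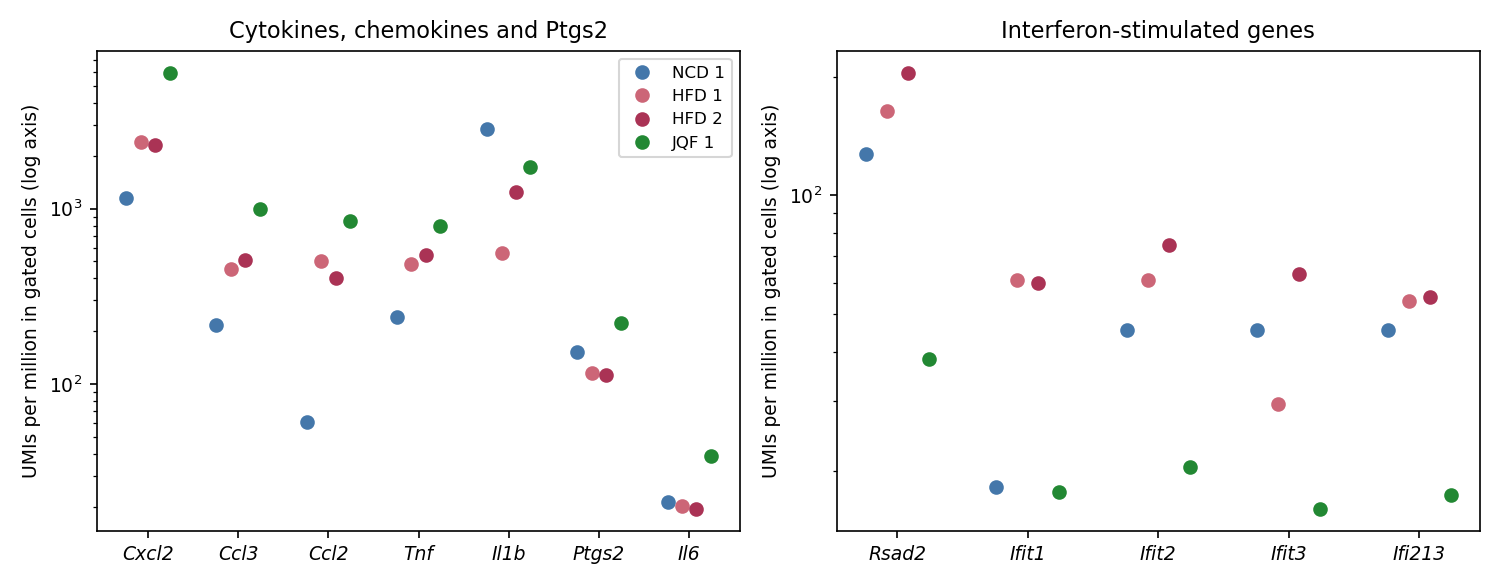
Cytokine and interferon-stimulated genes in the classical gate, in CPM on a log axis, with 1 point for each of the 4 libraries. Cxcl2 reaches 5965 in JQF against 2396 and 2314 in HFD, and Rsad2 is at 38.4 against 164 and 205.

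Without the cells that passed through Ccr2 alone, an alternative chosen after seeing the data, 73 of 11086 genes were called (0.658%), 29 higher (0.262%) and 44 lower (0.397%), the 3 genes above among them. Of the cytokine list 3 genes rose: Cxcl2 (3071 and 2701 CPM in HFD, 7490 in JQF, log2 1.52, adjusted p = 0.0207), Ccl3 (553 and 579, 1183, log2 1.20, adjusted p = 0.0410) and the prostaglandin synthase Ptgs2 (149 and 122, 282, log2 1.20, adjusted p = 0.0410). Of the interferon-stimulated list 3 genes fell: Rsad2 (174 and 216, 45.3, log2 -1.97, adjusted p = 0.0120), Ifit2 (45.4 and 74.1, 9.93, log2 -2.47, adjusted p = 0.0207) and Ifi213 (59.8 and 60.7, 20.7, log2 -1.40, adjusted p = 0.0269). Counted over all gated cells, 36 of the 73 had under 50% of the counts of their higher group in 3 cells. Among those that did not were Ccl17 (log2 8.15), Ccl22 (4.94), Ccr7 (4.22), Il12b (2.93) and Cxcl9 (1.73), all higher in JQF. In the same order, 3 cells held 94.7%, 91.2%, 97.1%, 97.4% and 65.7% of their JQF counts. Thinning to 3000 UMIs called Cxcl2, Ccl2, Ccl3, Rsad2, Ifit2 and Ifi213 too. Over all tested settings the adjusted p ran from 1.15e-06 to 0.508 for Cxcl2 and from 1.26e-11 to 0.376 for Rsad2.

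As the cytokine and interferon-stimulated genes were listed in opposite directions, the stretches before their start sites that hold 2 known motifs are shown, from RefSeq on GRCm38.p6 and on the strand of each gene. Capitals mark GAAA, 2 bases of any kind and GAAA on either strand, the interferon-stimulated response element bound by the Stat and Irf factors, and GGG, 2 bases of any kind and TTTCC on either strand, a form of the site of NF-kappaB. The first motif is held within 250 bases upstream by 978 of 32851 promoters (2.98%), and the second by 464 (1.41%). The stretches lie at chr19:34640770-34640828 (Ifit1), chr19:34583358-34583431 (Ifit3), chr12:26456548-26456587 (Rsad2), chr1:173599321-173599360 (Ifi213), chr5:90903787-90903845 (Cxcl2) and chr5:30013055-30013094 (Il6).
Ifit1: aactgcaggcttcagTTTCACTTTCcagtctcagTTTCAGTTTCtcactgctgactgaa
Ifit3: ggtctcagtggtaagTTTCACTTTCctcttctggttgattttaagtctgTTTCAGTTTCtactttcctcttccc
Rsad2: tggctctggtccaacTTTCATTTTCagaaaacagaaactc
Ifi213: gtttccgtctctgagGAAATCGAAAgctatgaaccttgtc
Cxcl2: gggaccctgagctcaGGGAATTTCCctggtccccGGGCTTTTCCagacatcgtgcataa
Il6: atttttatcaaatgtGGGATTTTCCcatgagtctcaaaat
The windows of Ifit2, Ccl3, Tnf, Il1b and Cxcl9 hold no such match, and Ccl2 is named only. Both motifs can share a GAAA, and no match shown overlaps one of the other motif. A match describes the letters of the window and no binding in these cells.

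The same genes were read outside the classical gate. In nonclassical monocytes Cxcl2 stood at 504 CPM in NCD, 1925 and 2320 in the HFD libraries and 5629 in JQF, and Rsad2 at 83.6, 186, 176 and 44.8. In cells gated by Cd209a, a marker of type 2 dendritic cells, Rsad2 went from 157 and 162 in HFD to 10.9 in JQF, whereas in macrophages, gated by the complement genes, it was 187 and 277 against 240. T cells had 89.0 and 57.8 against 68.6. Over the whole interferon-stimulated list, JQF was below both HFD libraries in macrophages as well (3595 and 4025 CPM in HFD, 2959 in JQF) and in neutrophils (2593 and 2930, 1794). In T cells JQF lay between the HFD libraries for this list (2634 and 1703, 2034). Over the cytokine list JQF was above both in macrophages (4783 and 5876, 8847) but not in T cells (3286 and 4026, 2758). The difference of the JQF effect between classical and nonclassical monocytes was tested as an interaction in edgeR, and none of 12457 genes (0%) passed, with 827 at an unadjusted p under 0.05 and 6 past the threshold with RLE scaling. For Cxcl2 this difference was -0.01 on the log2 scale (SE 0.123).

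Most other gene groups of the classical monocytes had no called gene between JQF and HFD. Of 18 identity genes tested, none passed, and their median was 0.09, or -0.04 with library totals. Plac8 had 387, 2051, 2413 and 1211 CPM (log2 -0.75, adjusted p = 0.533). MHC class II genes were positive in 14 of 15 (median 0.43), glycolysis genes in 11 of 18 (median 0.12) and oxidative phosphorylation genes in 15 of 22 (median 0.03), none past the threshold, beside 5742 of all 11947 genes. With library totals the last 2 medians turned to -0.02 and -0.11. Among genes of lipid-associated macrophages, Gpnmb stood at 0, 41.1, 77.5 and 149 CPM (log2 1.44, adjusted p = 0.413) and its sign reversed at 3000 UMIs per cell. Of the neutrophil granule list, 2 of 14 were called lower, Lcn2 and Ngp, with a median of -2.36. That count was 7 with library totals, 6 with DESeq2 and 7 without cells gated through Ccr2 alone. It was 1 with RLE scaling, under a stricter gate (defined below) and without cells of endothelial UMIs, and 0 without predicted doublets. The 3 genes highest by fold among those of at least 100 CPM in JQF, named although none passed, were Gm17749 (26.6 and 19.6 CPM in HFD, 103 in JQF, log2 2.30, adjusted p = 0.0659), Lsmem1 (40.1 and 13.5, 110, log2 2.21, adjusted p = 0.350) and the cystine transporter gene Slc7a11 (76.1 and 122, 273, log2 1.58, adjusted p = 0.325).

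**Figure D5:**
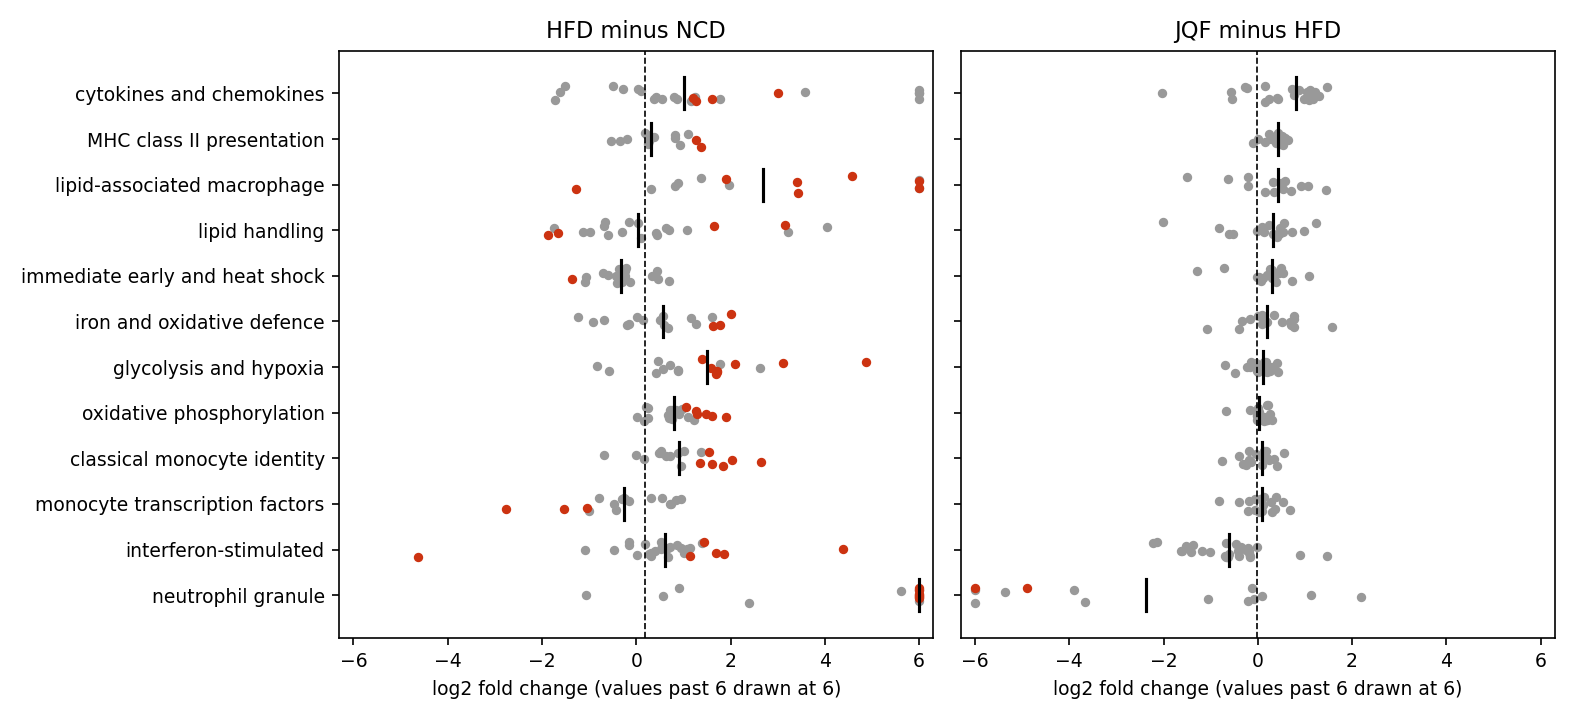
Log2 fold changes of the tested genes of each list in classical monocytes, HFD minus NCD on the left and JQF minus HFD on the right. Red points passed an adjusted p of 0.05, bars are list medians, the dashed line is the median of all genes, and values past 6 are drawn at 6. On the right the cytokine bar lies at 0.82 and the interferon bar at -0.61 with no red points in either.

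HFD was compared with NCD in the same fit, which shares the HFD libraries with the comparison above. Of 11947 genes, 1192 were called (9.98%), 488 higher in HFD (4.08%) and 704 lower (5.89%), with a median log2 fold change of 0.19, or 0.07 with library totals. The direction of the calls varied, with 181 higher and 52 lower at 3000 UMIs per cell, 1299 and 1130 without a filter on low counts, and 45 and 228 without cells of endothelial UMIs. The NCD side held 14 cells. The spread behind each SE and p-value came from the HFD pair and does not measure the added sampling error of so few cells. Without cells of more than 2 endothelial UMIs, chosen after seeing the data, the number of genes called was 273 (11 NCD cells), of which 243 were called with all cells. Under a stricter gate of at least 2 Ly6c2 and 5 F13a1, Chil3 and Ccr2 UMIs it was 58 (9 NCD cells), of which 52 were called before. Without cells gated through Ccr2 alone it was 1033, with 729 called before. Of 44 named genes followed through every tested setting, 6 passed in all: Spp1, Plin2, Eno1, Ccl2, Dennd4a and Dusp16.

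Spp1, the secreted phosphoprotein osteopontin (chr5:104435118-104441050, plus strand), had no UMI in NCD and 358 and 416 CPM in HFD, at least 43.0-fold higher with the UMIs of both HFD libraries pooled and NCD set to a floor of 3 UMIs over the group. Its JQF level was 305 CPM, and at 3000 UMIs it was found in 10.3%, 13.7% and 12.4% of the HFD and JQF members against 2.54% to 5.70% of T cells. Plin2, which coats lipid droplets (chr4:86648386-86670060, minus strand), rose from 81.7 CPM to 678 and 666 (log2 3.16, SE 0.295, adjusted p = 0.00578) and stood at 608 in JQF. Eno1, the glycolytic enolase (chr4:150236721-150248879, plus strand), rose from 9.08 CPM, which is 3 UMIs, to 225 and 265 (log2 4.87, adjusted p = 0.00603). It was also below HFD in other NCD cells, at 18.5 CPM in nonclassical monocytes, 8.52 in macrophages and 26.9 in T cells, against 129 to 271 in HFD. Ccl2 (chr11:82035571-82037453, plus strand) rose from 60.5 CPM to 500 and 401 (log2 3.01, adjusted p = 0.00804). Dennd4a, a regulator of Rab GTPases, fell from 5015 to 810 and 1072 CPM (log2 -2.28, adjusted p = 0.0126). Dusp16, a phosphatase of stress kinases, fell from 563 to 166 and 128 (log2 -1.82, adjusted p = 0.0124). For each of the 6, NCD lay outside the HFD pair, as it did for 89.1% of all genes tested.

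Of the list of lipid-laden macrophage genes, Spp1 included, 6 of 14 tested rose and Ctsl fell, with a median of 2.68. The list was lower in NCD than in both HFD libraries in the other gates as well. It summed to 17245 CPM against 41229 and 36524 in macrophages, and to 2903 against 4766 and 5250 in neutrophils. Gpnmb had no NCD UMI and 41.1 and 77.5 CPM in HFD (at least 6.77-fold higher with both HFD libraries pooled, as for the folds of this kind that follow). Trem2, a lipid receptor, rose from 6.05 to 47.3 and 70.1, Lpl, the lipoprotein lipase, from 27.2 to 184 and 350, and Cd63 from 3.03 to 59.2 and 74.5. The NCD levels of Trem2 and Cd63 lay below the floor of 3 UMIs. In free RNA the list summed to 4825, 13044, 18518 and 8088 CPM, above the 3508, 5745, 7346 and 7456 of the members, and its part in these levels was not tested. At 3000 UMIs Lpl was found in 0%, 16.2%, 28.9% and 31.2% of members against 0.380% to 5.57% of T cells, and Gpnmb in 0%, 6.55%, 10.6% and 12.9% against 1.14% to 2.48%. Outside the list, the stress cytokine gene Gdf15 (0 against 103 and 182, at least 16.2-fold) and the oxidised LDL receptor gene Olr1 (0 against 39.0 and 70.1, at least 6.20-fold) rose, as did the acute-phase gene Saa3 (3.03 against 57 and 105). The NCD level of Saa3 also lay below the floor of 3 UMIs. Gpnmb, Trem2, Gdf15, Olr1 and Saa3 were not called in every tested setting.

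Of 18 glycolysis and hypoxia genes, 8 rose and none fell, among them Gapdh (327 CPM in NCD, 941 and 1027 in HFD), Ldha (154, 388 and 358), Aldoa (130, 382 and 399) and Pkm (173, 501 and 518), with a list median of 1.49. The NCD library was low for this list in every gate, with a sum of 1413 CPM in the members against 3582 and 3742 in HFD, 1149 against 3534 and 3624 in nonclassical monocytes, 1492 against 3498 and 2894 in macrophages, and 1717 against 2291 and 2513 in T cells. Oxidative phosphorylation genes rose in 6 of 22 (median 0.81), and their sum was likewise lowest in NCD in T cells (2663 CPM against 3957 and 4682). Classical identity genes rose in 6 of 18, Plac8 (387 against 2051 and 2413, log2 2.65, adjusted p = 0.0105) and Vcan (84.7 against 329 and 306, log2 2.03, adjusted p = 0.0146) among them. The identity list was also lower in NCD than in both HFD libraries in the other gates. It summed to 383 CPM against 765 and 1147 in T cells, and to 5215 against 7755 and 7364 in macrophages. Of the cytokines, 4 of 24 rose: Ccl2, Cxcl10, Ccl3 and Tnf. Of the interferon-stimulated genes, 5 of 28 rose, Zbp1, Oasl1, Ifitm3, Bst2 and Ifit1, and Iigp1 fell, with 97.9% of its NCD counts in 3 cells. Their list was likewise lower in NCD than in both HFD libraries in the other gates, as in T cells (1570 CPM against 2634 and 1703). The MHC class II list had 2 called of 15, Ifi30 (315 CPM against 678 and 810) and Ciita (48.4 against 115 and 98.3). Ly6c2, F13a1 and Chil3 were past the threshold as well, but chose the cells.

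These list counts varied with the cells kept. Without cells of endothelial UMIs and under the stricter gate, the genes called higher numbered 1 and 1 for glycolysis, 1 and 0 for oxidative phosphorylation, 1 and 0 for the identity list, 1 and 1 for cytokines, 0 and 0 for both the interferon-stimulated and the MHC class II list, and 2 and 1 for lipid-associated macrophages. The glycolysis median stayed at 1.23 and 1.35 and the lipid-associated median at 3.21 and 3.33 in these settings, and the oxidative phosphorylation median was 0.57 and 0.97. The identity median was 0.47 and 0.38, against 0.91 with all cells, and the cytokine median 0.59 and 0.37, against 1.01. Without cells gated through Ccr2 alone the counts were 9 for glycolysis, 8 for oxidative phosphorylation and 8 for lipid-associated macrophages. In the same setting they were 4 for the identity list (1 lower), 2 for cytokines (2 lower) and 2 for MHC class II. The interferon-stimulated median turned to -0.19 under the stricter gate, and to 0.01 without cells gated through Ccr2 alone, where 2 genes were higher and 2 lower. The MHC class II median turned to -0.43 without cells of endothelial UMIs, with 4 genes positive and 11 negative.

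Lower in HFD were 3 of 17 transcription factors, Stat3 (911 CPM in NCD, 300 and 282 in HFD), Runx1 (1220, 559 and 533) and Maf (829, 96.6 and 127), the last with 94.5% of its NCD counts in 3 cells. Their list was also higher in NCD than in HFD in T cells (5257 CPM against 2908 and 3215) and macrophages (9249 against 6234 and 7413). In nonclassical monocytes NCD lay between the HFD libraries (10344 against 10040 and 10833). The adhesion receptor gene Cd44 fell from 5263 to 1361 and 1588 (log2 -1.71, adjusted p = 0.0210). Inpp5a (236, 38.5 and 38.2), Nup98 (560, 128 and 136), Arid5a (157, 36.6 and 43.1) and Hipk3 (197, 53.5 and 47.0) fell as well. Stat3, Cd44, Inpp5a, Nup98, Arid5a and Hipk3 were not called in every tested setting. The endothelial list fell in 9 of 10 (median -5.18, with 0 called under the stricter gate), and Mki67 and Top2a fell with at least 96.7% of their NCD counts in 3 cells. Neutrophil granule genes were called higher in 7 of 14, with 1 cell holding 76.4% of the counts of the list in HFD replicate 1 and 1 cell 47.6% in HFD replicate 2. The lists for patrolling, recruitment, pattern recognition, Kupffer cell, macrophage differentiation, lipid handling, clotting, oxidative defence, heat shock and clock genes each had between 0 and 3 called in either direction, and none was called of the hepatocyte, lymphocyte, dendritic and erythroid lists.

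The diet effect differed between classical and nonclassical monocytes for 463 of 12457 genes (3.72%) by the interaction test in edgeR. Spp1 rose more in the classical cells, and Plin2 did as well (81.7 to 678 and 666 CPM, against 247 to 752 and 627 in nonclassical cells). For Vcan and Fn1, which are label markers, the difference was negative, and their levels in NCD nonclassical cells were 3.89 and 48.6 CPM against 84.7 and 511 in classical cells. The endothelial list summed to 7693, 236, 421 and 373 CPM in the nonclassical gate, so that the NCD side of both gates held endothelial transcripts. The erythroid list stood at 5232, 0.994, 68.7 and 4.27 CPM in the nonclassical gate, and the classical identity list at 3421, 15160, 19514 and 14326. The part of such transcripts in the differences between the gates was not tested.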

How the data were processed

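Whole-liver cells of 4 mice were profiled by droplet single-cell RNA sequencing. The authors aligned reads to mm10, and their processing notes name Cell Ranger 6.0.1 and Seurat 4.0.3. The headers of the deposited filtered matrices name version 7.0.0 and those of the unfiltered matrices version 4. Whether intronic reads were counted is therefore not settled. The deposited values are raw UMI counts per gene and barcode for 32285 genes. Unfiltered matrices served only for free RNA, from barcodes of at most 100 UMIs. Levels in free RNA and in members may thus come from different versions, and the effect of this was not tested. Groups followed GEO's labels.

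Counts were read in Python 3.11.15 (scanpy 1.11.5, scipy 1.17.1, numpy 2.4.6), cells gated, and UMIs summed per library. Sums were tested in R 4.3.3 with edgeR 4.0.16 (filterByExpr, TMM, quasi-likelihood, all 4 libraries, group only), leaving 1 residual degree of freedom, from the HFD pair. DESeq2 1.42.0 was an alternative, beside other scalings, filters, gates, thinning to 3000 UMIs (shallower cells left out), and removal of doublets, called by Scrublet at 0.8% per 1000 barcodes. For shares, ratios and gene tests the gate was applied again to the thinned counts, which left 7, 215, 296 and 151 members. List medians, shares of members with a UMI and the Ly6c2 split at 3000 UMIs kept the members of the main gate. Genes were named by rule: 2 called genes per list, and up to 6 per direction with the largest folds. The latter also needed at least 50 CPM in the higher group. Both kinds had under 50% of UMIs in 3 cells of the higher group. For JQF, where none qualified, the 3 largest folds per direction at 100 CPM were taken. The 3 called JQF genes were added after their values were seen. Further list genes, such as Cxcl2, Ccl3, Ccl2, Rsad2 and Ifi213 for JQF, were named outside this rule. Members and all 26 lists (411 of 414 genes found) were chosen with earlier results of these data known. On simulated counts (11567 genes, JQF against HFD), 54 of 100 genes changed 2-fold and 100 of 100 changed 4-fold were recovered, with 8 false calls. The simulation used a smaller spread between libraries than the fit to the real counts (common dispersion 0.0476) and changed only genes above a minimum level. Its recovery therefore does not give that of the real test. Gene positions are GENCODE M21, with 32235 IDs matched.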

Additional observations from a re-analysis of the deposited data

Results flagged for a closer look

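For 13 named genes the diet effect (HFD against NCD) differed between classical and nonclassical monocytes by the interaction test of edgeR. The values below are the log2 fold change in classical cells minus that in nonclassical cells, and each rests on the 14 classical and 45 nonclassical NCD cells. Spp1 (9.90) and Plin2 (1.48) had the larger increase in classical monocytes, Spp1 with no UMI in the classical NCD cells, so that the size of its value depends on the prior count.

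The difference was negative for the monocyte genes Chil3 (-1.62), Vcan (-3.31) and Fn1 (-2.37), for the lysosomal reductase gene Ifi30 (-2.50), for the macrophage gene Aif1 (-1.90), for the oxidase subunit gene Cyba (-0.69), and for the chemokine gene Ccl3 (-1.47). Each of these was also more abundant in classical than in nonclassical NCD cells. Cd44 (-1.26), Dennd4a (-1.51) and the heat-shock gene Hspa1a (-1.09) had the larger decrease in classical cells. Mki67 differed by -5.88, with 96.7% of its classical NCD counts in 3 cells. Chil3 helped to choose the classical cells, so its value is a description. The part of endothelial transcripts, at 3738 CPM in the classical and 7693 CPM in the nonclassical NCD gate, was not tested.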

How the results depend on the processing

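No paired analysis was possible because the groups share fewer than 2 replicate numbers. Leaving out an HFD library left no residual degrees of freedom, and so no test. The HFD share then ran from 3.81% to 4.56% and the ratio from 1.28 to 1.79. Genes called between HFD and NCD (1192) numbered 2429 without a filter on low counts, 505 with DESeq2, 233 at 3000 UMIs per cell (7 NCD cells), 58 under the stricter gate and 273 without cells of endothelial UMIs. Genes called between JQF and HFD (3) numbered 12 with library totals (3 higher), 491 without a filter, 13 with DESeq2, 100 at 3000 UMIs, 0 without predicted doublets, 73 without cells gated through Ccr2 alone and 8 without the NCD library. The last 3 kinds of cell or library, endothelial, Ccr2 alone and NCD, were left out after seeing the data. The interaction counts were 1209 (HFD against NCD) and 228 (JQF against HFD) without a filter, and 6 for JQF with RLE scaling. They were not run at 3000 UMIs or under the stricter gate, where a library had under 10 cells of a gate.

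The NCD share was 0.639% without cells of endothelial UMIs and 0.595% of Ptprc cells. It was 0.134% at 3000 UMIs, 0.151% under the stricter gate and 0.184% without cells gated through Ccr2 alone. The HFD share was 3.51% at 3000 UMIs, 2.89% under the stricter gate, 3.56% without cells gated through Ccr2 alone and 4.75% of Ptprc cells, and the JQF share 1.64% and 1.80% under the stricter gate and without cells gated through Ccr2 alone. The ratio to nonclassical cells was 0.875 (NCD), 4.28 (HFD) and 5.81 (JQF) at 3000 UMIs, and 2.08 (HFD) and 1.68 (JQF) with a nonclassical gate of 3 UMIs. NCD stayed lowest, and JQF below HFD in share, under each of these.

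Directions reversed for Gpnmb in JQF against HFD at 3000 UMIs (-0.48). In HFD against NCD they reversed for Mki67 (1.14 under the stricter gate, 0.39 without cells gated through Ccr2 alone) and Top2a (9.49 and 2.72 in the same order, and 6.41 at 3000 UMIs). The stricter gate and the removal of cells gated through Ccr2 alone leave out the NCD cell that held 147 UMIs of both genes. That cell held 1 Ly6c2 UMI among 63104. At 3000 UMIs the gate was applied again and left 7 NCD cells, and the cause of that reversal was not tested. Of the tested alternative values of the 44 genes followed in HFD against NCD, 324 kept direction and side of the threshold, 109 lost the call and 2 gained it. Of those of the 23 genes followed in JQF against HFD, 192 kept both, 52 gained the call and 8 lost it. Without an HFD library, which gave no test, 2 and 9 values moved by more than 1 standard error.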

Other observations

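Stomach transcripts were present in HFD replicate 2 and nearly absent from the other libraries. Tff1, a gastric trefoil peptide, was found in 145 of 391 classical monocytes of that library (37.1%) and in 741 of 2131 T cells (34.8%), and Gkn2, a gastrokine, in 157 (40.2%) and 775 (36.4%). Both were found in no classical monocyte of the other 3 libraries. The free RNA of HFD replicate 2 held 3098 CPM of Tff1 and 2703 CPM of Gkn2, against at most 2.55 and 3.79 elsewhere. Neither cell type is known to make them, and the source of these transcripts was not tested.

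Within the classical gate, some neutrophil granule transcripts came in a few cells. Camp or Ngp was found in 2 members of HFD replicate 1, 12 of HFD replicate 2 and 1 of JQF. More than 2 UMIs of the cytotoxic genes Nkg7 and Gzma were found in 1, 16, 6 and 4 members of NCD, HFD replicates 1 and 2 and JQF.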
